A study of Mus musculus with 9 samples.

Results

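The enzymes, chaperone, and proteases that make a collagen chain into a mature collagen molecule were followed in lung fibroblasts of aged mice 30 days after bleomycin. They are 10 of the 43346 genes in the deposited table, chosen by gene name: the prolyl 4-hydroxylase subunits P4ha1, P4ha2, and P4ha3, the lysyl hydroxylases Plod1, Plod2, and Plod3, the collagen chaperone Serpinh1, the procollagen C-proteinase Bmp1, and its enhancers Pcolce and Pcolce2. The libraries came from male Col1a1-GFP mice on an FVB background aged 72 weeks (18 months in the treatment notes), which received 1 intratracheal dose of saline (aged sham, n = 4) or bleomycin (aged bleo, n = 5), a drug that injures the lung and leads to fibrosis. In both groups, lungs were dissociated and cells were sorted by FACS as GFP+, CD45-, CD31-, and EpCAM-. The GFP of this strain is driven by the collagen I promoter. The sort thus selected cells by a reporter of genes that the 10 members serve, and cells without GFP signal were not selected. Markers of other cell types still had reads in the libraries, as given below.

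Collagen chains are modified while they are still unfolded in the endoplasmic reticulum. Prolyl 4-hydroxylase, a tetramer of alpha subunits and protein disulfide isomerase, adds the hydroxyl groups that hold the triple helix together at body temperature, and lysyl hydroxylases prepare lysines for sugar attachment and for the cross-links that lysyl oxidases later start. The chaperone encoded by Serpinh1, known as HSP47, binds the folded helix on its way out of the cell, and outside the cell BMP1 removes the C-terminal propeptide, a step that the PCOLCE proteins speed up and without which fibrils do not form.

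Read totals ranged from 49921946 to 68260600 counts per library, and levels are given as CPM, counts scaled to the library total with TMM factors, with 1 standard deviation. At these depths, 3 counts, the most that a count of 0 leaves possible, equal 0.0409 to 0.0605 CPM. Differences between aged bleo and aged sham were tested with edgeR's quasi-likelihood test over the 16877 genes whose mean count reached 25. A gene was called where its Benjamini-Hochberg adjusted p-value (FDR) was under 0.10 and its level changed more than 1.5-fold, which held for 23.8% of these genes (12.3% with a higher and 11.5% with a lower level after bleomycin). The fibroblast markers, among them Col1a1, through which the cells were sorted, summed to 24101 to 26936 CPM in aged sham and 37263 to 50002 CPM in aged bleo, and of the 11 genes 4 were higher and 4 lower. Of the macrophage markers, 6 of 8 were higher in aged bleo (summed level 175 to 347 CPM in aged sham and 576 to 1841 CPM in aged bleo), and aged bleo 4 had the highest sum. The other lists were called in 1 of 6 pan-leukocyte genes (107 to 410.3 CPM and 111 to 613 CPM), 1 of 7 neutrophil genes (169 to 1013 CPM and 91.4 to 917 CPM), 3 of 7 smooth muscle and pericyte genes (1477 to 2936 CPM and 881 to 1929 CPM), 2 of 6 tested endothelial genes (164 to 202 CPM and 26.8 to 71.4 CPM), 3 of 8 epithelial genes (13.7 to 98.2 CPM and 17.1 to 53.2 CPM), 3 of 4 tested chondrocyte and osteoblast genes (43.8 to 62.4 CPM and 67.3 to 97.7 CPM), and all 8 stress and immediate early genes, 6 of them lower (12831 to 16731 CPM and 5353 to 11120.2 CPM). None of the 4 mesothelial genes was called by edgeR (none at an unadjusted p under 0.05, and 1 by DESeq2), with sums of 22.6 to 70.96 CPM and 27.5 to 106 CPM. Every marker had reads, and Emcn, Col2a1, and Bglap stayed under 1 CPM in all 9 libraries. The part of these cells in the results was not tested. When aged sham 4 and aged bleo 4, which had the most leukocyte transcripts of their groups, were left out, 4 members were again called higher and 1 lower. The remaining libraries still differed in summed macrophage markers (175 to 244 CPM in aged sham and 576 to 1069 CPM in aged bleo). Leaving the 2 libraries out therefore did not make the groups alike in these cells. Each library carries a short name, whose last digit was 4 in aged sham throughout, as in aged bleo 4, while the remaining aged bleo libraries had a 5 or a 6. What the digit stands for is not stated, so outside aged bleo 4 it cannot be told apart from the treatment. With aged bleo 4 as the 1 bleomycin library, the log2 fold change was 5.09 for P4ha3, 1.05 for Plod1, and 1.44 for Plod2. It was 1.16 for Serpinh1 and -3.25 for Pcolce2. As these values rest on 1 bleomycin library, the part of the digit was not tested. In bulk libraries such as these, fewer cells of a type and less RNA per cell cannot be told apart.

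All 10 genes were expressed in every library and passed the filter on low counts. After bleomycin, 4 of them (P4ha3, Plod1, Plod2, and Serpinh1) were higher and 1 (Pcolce2) was lower, that is 4 and 1 of 10 members beside 12.3% and 11.5% of all genes tested. Plod3 and Pcolce passed the FDR threshold but not the fold change threshold, in opposite directions, and P4ha1, P4ha2, and Bmp1 passed neither. The median log2 fold change of the 10 genes was 0.32, and that of all genes tested was 0.01. In 5 members every aged bleo library was above every aged sham library, and in 2 every aged bleo library was below, while each of these patterns was seen in 16.1% of the genes tested.

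**Figure D1:**
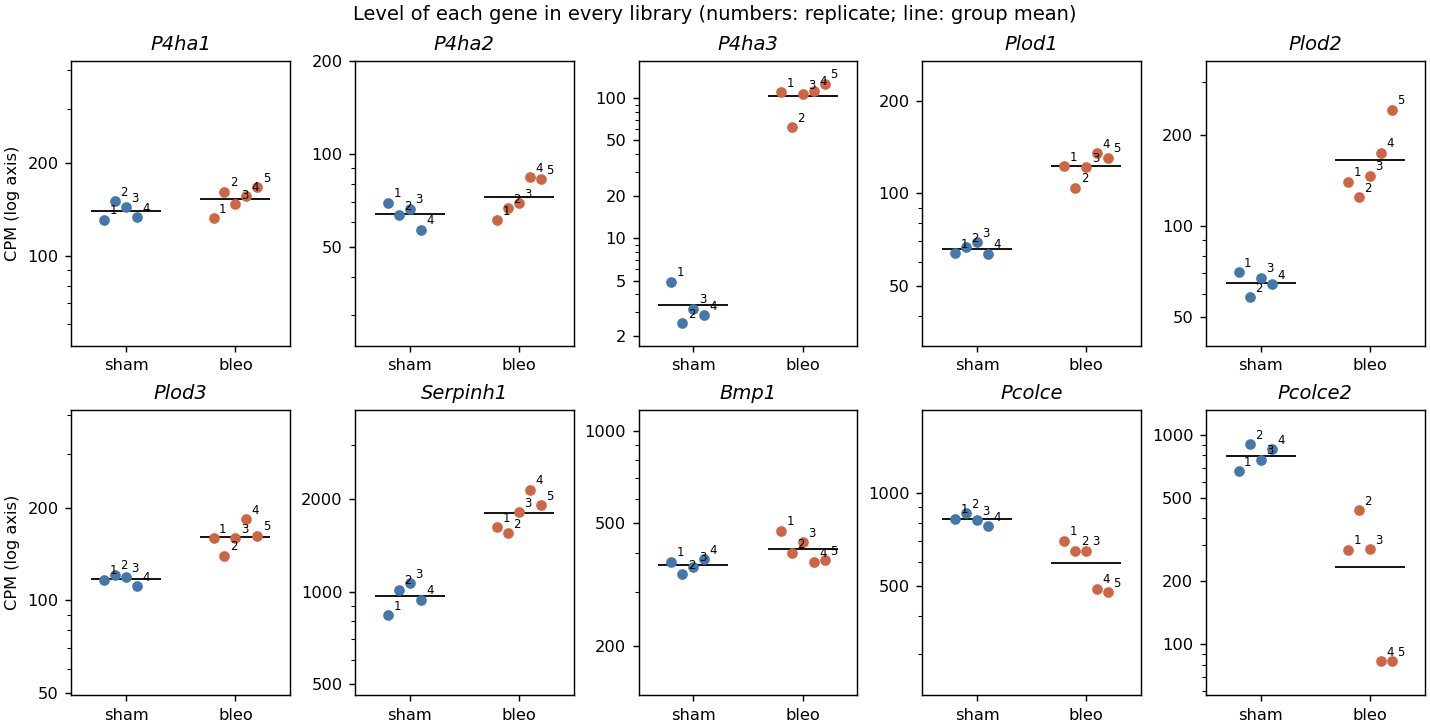
Level of the 10 genes in CPM, on a log axis, in each of the 4 aged sham (blue) and 5 aged bleo (orange) libraries, numbered by replicate, with the group mean as a line. P4ha3 has the widest gap between the groups, from at most 4.89 CPM in aged sham to at least 62.0 CPM in aged bleo, and Pcolce2 the widest spread within aged bleo, from 83.2 to 439 CPM.

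**Figure D2:**
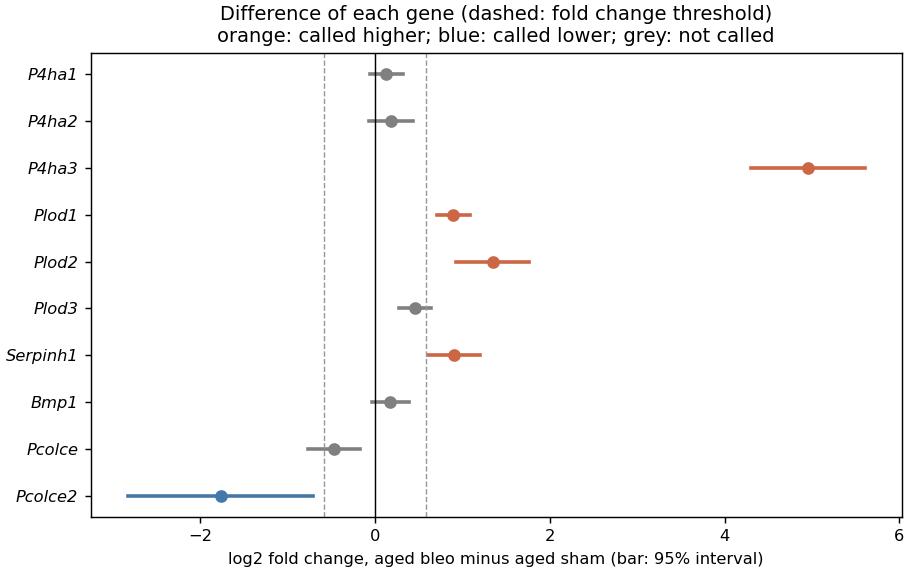
Log2 fold change of each gene in aged bleo minus aged sham, with its 95% interval from the edgeR fit, and the fold change threshold of 1.5 as dashed lines. P4ha3 stands at 4.95 and Pcolce2 at -1.77, and the intervals of P4ha1, P4ha2, and Bmp1 include 0.

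Among the prolyl 4-hydroxylase alpha subunits, which carry the active site of the enzyme, the scarce form rose and the abundant forms did not differ beyond their spread. P4ha3 (ENSMUSG00000051048, GRCm38 chromosome 7, 100285520 to 100319699, plus strand) was at 4.89, 2.48, 3.15, and 2.82 CPM in aged sham 1 to 4 and at 111, 62.0, 106, 113, and 127 CPM in aged bleo 1 to 5. These are 140 to 303 reads per aged sham library and 3489 to 8289 reads per aged bleo library, so the gap is far wider than counting error, and the groups did not overlap. The mean rose 31.1-fold, from 3.34 ± 1.07 CPM (SD, n = 4) to 104 ± 24.6 CPM (SD, n = 5), with a log2 fold change of 4.95 (standard error 0.29, 95% interval 4.31 to 5.6, edgeR FDR 1.48e-05), which ranked 55 from the top among the 16877 genes.

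P4ha1 (ENSMUSG00000019916, chromosome 10, 59323296 to 59373304, plus strand), the main alpha subunit of most cells, was at 131, 150.4, 144, and 133 CPM in aged sham and at 132, 161.5, 147, 156, and 167 CPM in aged bleo, so the ranges overlapped (log2 fold change 0.13, 95% interval -0.06 to 0.32, edgeR FDR 0.265). P4ha2 (ENSMUSG00000018906, chromosome 11, 54100095 to 54131665, plus strand) was at 69.5, 63.4, 66.4, and 56.7 CPM in aged sham and at 61.0, 66.7, 69.1, 84.1, and 82.7 CPM in aged bleo. Its ranges overlapped as well (log2 fold change 0.18, 95% interval -0.06 to 0.43, edgeR FDR 0.221), and the upper ends of both intervals lie under the fold change threshold of 1.5.

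The windows of 250 bases before the RefSeq start sites of the 3 subunit genes are shown here because 1 of these paralogs moved and the others did not. They are from GRCm38.p6, at chr10:59323046-59323295 for P4ha1, chr11:54100674-54100923 for P4ha2, and chr7:100285270-100285519 for P4ha3, all on the plus strand, and the window of P4ha2 lies inside the gene as the deposited table draws it. They read 5′ to 3′, and capitals mark matches, on either strand, of the GC box GGGCGG and of the hypoxia response cores ACGTG and GCGTG.
P4ha1: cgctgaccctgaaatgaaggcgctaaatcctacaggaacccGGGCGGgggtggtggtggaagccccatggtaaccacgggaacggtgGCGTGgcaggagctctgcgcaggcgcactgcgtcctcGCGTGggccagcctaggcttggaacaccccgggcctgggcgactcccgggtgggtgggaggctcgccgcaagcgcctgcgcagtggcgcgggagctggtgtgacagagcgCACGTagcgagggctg
P4ha2: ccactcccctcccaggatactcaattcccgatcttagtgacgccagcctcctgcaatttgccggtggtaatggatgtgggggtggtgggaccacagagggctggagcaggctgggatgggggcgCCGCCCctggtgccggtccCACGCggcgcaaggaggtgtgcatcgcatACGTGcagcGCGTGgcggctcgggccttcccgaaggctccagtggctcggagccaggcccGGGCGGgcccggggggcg
P4ha3: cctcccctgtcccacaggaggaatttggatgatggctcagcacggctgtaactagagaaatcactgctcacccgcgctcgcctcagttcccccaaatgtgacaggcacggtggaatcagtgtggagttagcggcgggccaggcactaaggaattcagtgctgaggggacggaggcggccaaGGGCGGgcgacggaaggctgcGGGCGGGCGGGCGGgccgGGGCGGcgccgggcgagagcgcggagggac

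The P4ha3 window held 5 matches of GGGCGG, 3 of them overlapping in 1 run, and no match of ACGTG or GCGTG. The P4ha1 window held 1 match of GGGCGG, 1 of ACGTG, and 2 of GCGTG, and the P4ha2 window 2, 1, and 2. Among all 32851 RefSeq windows of this length, 32.7% held GGGCGG, 16.6% ACGTG, and 28.2% GCGTG. No window of the 3 held TGACGTG, the core of an unfolded protein response element (1.6% of all windows), CCAAT (33.8%), TATAAA (12.4%), or the NFAT core GGAAA (55.6%). Their GC content was 69.6%, 70.0%, and 67.2%, against a median of 52.4% over all windows. Such matches describe the letters of the windows only. In all, 8 of the 10 genes had an entry, and Plod2 and Bmp1 had none.

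Scaled to gene length as FPKM, the makeup of the alpha subunits changed from P4ha1 with some P4ha2 to P4ha1 and P4ha3 at similar shares. P4ha3 made up 3.61%, 1.71%, 2.22%, and 2.19% of the summed alpha subunit FPKM in aged sham 1 to 4, and 46.5%, 29.0%, 42.8%, 42.0%, and 43.7% in aged bleo 1 to 5. P4ha1 held 74.9% ± 2.49 of the sum in aged sham and 45.2% ± 6.03 in aged bleo, and P4ha2 22.7% ± 1.70 and 14.1% ± 1.16. The sum itself was 19.0 ± 1.27 FPKM in aged sham and 35.7 ± 4.82 FPKM in aged bleo. The log2 ratio of P4ha3 to P4ha1 differed by 4.80 and that of P4ha3 to P4ha2 by 4.75, the same way in 5 of 5 aged bleo libraries (two-sided exact permutation test, p = 0.0159 for each, the smallest that this test gives for 4 against 5 libraries, and 0.0180 adjusted over 17 ratios). P4ha3 alone went from at most 4.89 CPM in aged sham to at least 62.0 CPM in aged bleo. The separation of both ratios follows from that gap, so these p-values add no separate support to the rise of P4ha3. The ratio of P4ha2 to P4ha1 differed by 0.05 (exact permutation p = 0.619, adjusted 0.619).

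**Figure D3:**
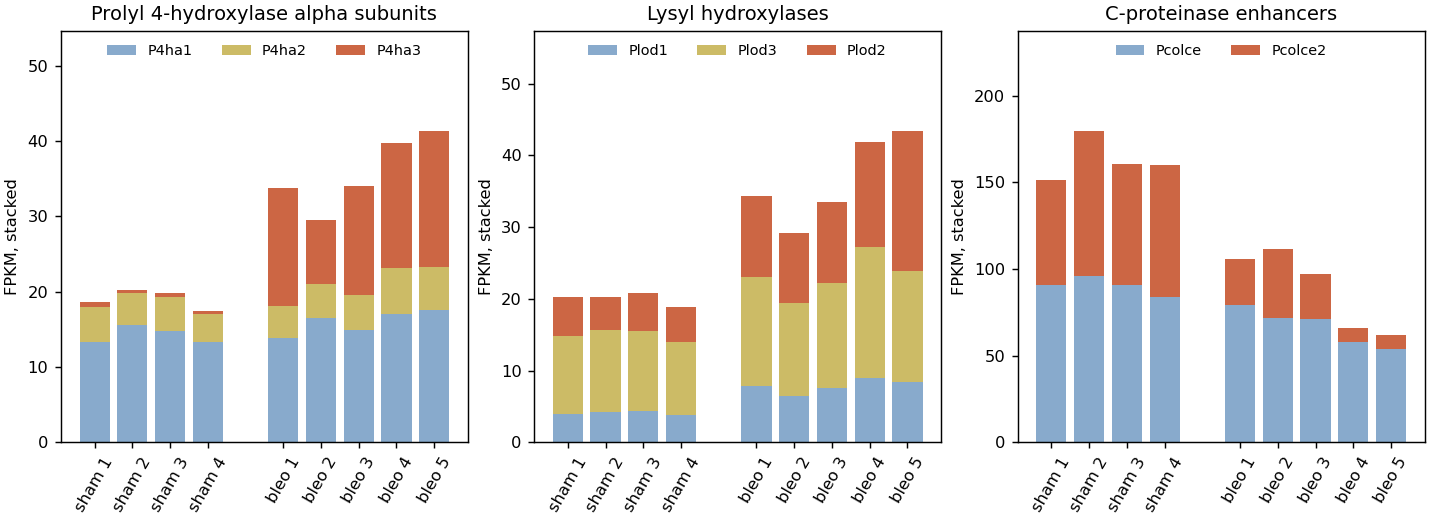
FPKM of the members of each family, stacked for each library, with aged sham libraries on the left and aged bleo libraries on the right of each panel. The P4ha3 segment (orange) is at most 0.673 FPKM in aged sham and 8.55 to 18.1 FPKM in aged bleo, the Plod2 segment widens, and the Pcolce2 segment shrinks to 8.09 and 7.78 FPKM in aged bleo 4 and 5.

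For all 3 lysyl hydroxylase genes the lowest aged bleo library lay above the highest aged sham library, by unequal amounts. Plod2 (ENSMUSG00000032374, chromosome 9, 92542223 to 92608428, plus strand) encodes the form that acts on the telopeptides at the ends of the collagen molecule, where hydroxylysine leads to the more stable cross-links. Plod2 was at 70.4, 58.4, 67.6, and 64.4 CPM in aged sham and at 141, 125, 147, 175, and 243 CPM in aged bleo. Aged bleo 5 was thus far above the rest, and the log2 fold change of 1.35 (standard error 0.19, edgeR FDR 0.00102) was 1.17 without it and still past the thresholds.

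Plod1 (ENSMUSG00000019055, chromosome 4, 147909753 to 147936767, minus strand), whose product acts on the helical part of the chain, was at 64.0, 67.0, 69.4, and 63.7 CPM in aged sham and at 123, 105, 122, 135, and 131 CPM in aged bleo. It varied little within the groups, and its log2 fold change was 0.90 (standard error 0.08, edgeR FDR 1.18e-04). Plod3 (ENSMUSG00000004846, chromosome 5, 136987019 to 136996648, plus strand) encodes a lysyl hydroxylase that also transfers sugars to hydroxylysine. It was at 117, 121, 119, and 111 CPM in aged sham and at 159, 139.7, 159, 184, and 162 CPM in aged bleo, again without overlap, but its log2 fold change of 0.46 (standard error 0.08, edgeR FDR 0.00384) stayed under the fold change threshold.

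The differences between the 3 genes exceeded their spread. The log2 ratio of Plod3 to Plod1 was 0.83 ± 0.04 in aged sham and 0.39 ± 0.05 in aged bleo, and that of Plod2 to Plod3 was -0.85 ± 0.14 and 0.01 ± 0.32. The log2 ratio of Plod2 to Plod1 was -0.02 ± 0.14 in aged sham and 0.40 ± 0.29 in aged bleo, with 0.19 in aged bleo 1 against 0.14 in aged sham 1 at the nearest point. Each of these ratios moved the same way in 5 of 5 aged bleo libraries (two-sided exact permutation p = 0.0159, the smallest possible, adjusted 0.0180). Per length, Plod3 was the most abundant form in aged sham, with 54.3% ± 1.42 of the summed lysyl hydroxylase FPKM. Such shares depend on the listed gene lengths, 6765 bases for Plod1, 5392 for Plod2, and 4519 for Plod3. In aged bleo Plod3 held 42.4% ± 3.69, next to 36.0% ± 5.06 for Plod2, which was above Plod3 in aged bleo 5 alone (19.5 against 15.6 FPKM). The summed FPKM of the family was 20.05 ± 0.824 in aged sham and 36.5 ± 5.98 in aged bleo.

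Reads of 2 of these genes can be affected by genes on the opposite strand. Plod3 shares 529 exon bases with Znhit1, which had 928 to 1147 reads in aged sham and 1270 to 2084 in aged bleo (log2 fold change 0.40), and Plod2 shares 346 with RP23-298I7.2, which had 201 to 255 and 399 to 596 reads (log2 fold change 1.02). Plod3 itself had 5528 to 13460 reads and Plod2 3195 to 13269, and the sources do not say if reads were counted by strand. Their part in the differences was not tested.

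Serpinh1 (ENSMUSG00000070436, chromosome 7, 99345375 to 99353230, minus strand) was the most abundant of the 10 genes per length in both groups, at 166 FPKM on average in aged sham and 319 FPKM in aged bleo. Its levels were 838, 1015, 1067, and 942 CPM in aged sham 1 to 4 and 1617, 1550.3, 1808, 2139, and 1907 CPM in aged bleo 1 to 5. The groups did not overlap, and the mean rose 1.87-fold, from 965 ± 99.1 CPM (SD, n = 4) to 1804 ± 236 CPM (SD, n = 5), with a log2 fold change of 0.90 (standard error 0.13, edgeR FDR 0.00129). Plod1 had a log2 fold change of the same size, and neither gene reached a fold change of 2.

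Of the genes for removal of the C-propeptide, the protease gene was not called, and both enhancer genes were lower in every aged bleo library. Bmp1 (ENSMUSG00000022098, chromosome 14, 70474557 to 70520260, minus strand) was at 375, 341, 361, and 382 CPM in aged sham and at 473, 399.6, 434, 373, and 379.7 CPM in aged bleo, and 2 aged bleo libraries lay within the range of aged sham (log2 fold change 0.18, 95% interval -0.03 to 0.38, edgeR FDR 0.168). In the deposited FPKM values, the Bmp1 ranges did not overlap (38.6 to 41.7 FPKM in aged sham and 43.7 to 54.4 FPKM in aged bleo), and limma on log2(FPKM + 0.1) gave a log2 difference of 0.21 with an FDR of 0.0865, past the FDR threshold but not the fold change threshold. Pcolce (ENSMUSG00000029718, chromosome 5, 137605103 to 137613784, minus strand) was at 827, 864, 819, and 783 CPM in aged sham and at 701, 652, 652, 491, and 477 CPM in aged bleo. Every aged bleo library was lower, but the log2 fold change of -0.47 (standard error 0.13, edgeR FDR 0.0236) did not reach the fold change threshold. Fbxo24, on the same strand, shares 112 exon bases with Pcolce and had at most 98 reads in any library, against at least 26078 for Pcolce.

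Pcolce2 (ENSMUSG00000015354, chromosome 9, 95637601 to 95698096, plus strand) fell most. It was at 672, 908, 762, and 856 CPM in aged sham and at 283, 439, 286, 83.3, and 83.2 CPM in aged bleo, without overlap. The mean was 799 ± 104 CPM (SD, n = 4) and 235 ± 152 CPM (SD, n = 5), and the log2 fold change was -1.77 (standard error 0.47, 95% interval -2.83 to -0.70, edgeR FDR 0.0190), which ranked 256 from the bottom of all genes tested. The 5 aged bleo libraries were spread widely, with aged bleo 4 and 5 far below aged bleo 1 to 3. The highest was 5.27 times the lowest, against 1.35 times in aged sham. The log2 ratio of Pcolce2 to Pcolce was -0.05 ± 0.19 in aged sham and -1.63 ± 0.88 in aged bleo (two-sided exact permutation p = 0.0159, the smallest possible, adjusted 0.0180, lower in 5 of 5 libraries). Per length, Pcolce2 made up 44.4% ± 3.29 of the summed enhancer FPKM in aged sham and between 12.3% and 35.7% in aged bleo. The summed FPKM of both enhancers went from 163 ± 12.0 to 88.3 ± 23.0.

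Levels of the members differed among the aged bleo libraries, and several members ranked these libraries alike. Aged bleo 2 was the lowest aged bleo library for all 5 genes whose aged bleo libraries lay above aged sham, and it was the highest for Pcolce2. Aged bleo 4 was highest for Plod1, Plod3, and Serpinh1, and aged bleo 5 for P4ha3 and Plod2. Aged bleo 5 was also the lowest library for Pcolce and Pcolce2, next to aged bleo 4. Of the 5 fibrillar collagen genes, 4 were likewise lowest in aged bleo 2. Over all genes tested, aged bleo 1 to 3 were nearer each other (chi-square per degree of freedom 34.1 to 76.3), as were aged bleo 4 and 5 (107). Pairs across these sets gave 158 to 468. The rankings and sets share the same 5 libraries and are given as a description.

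To see whether the processing genes kept pace with their substrate, each was divided by the summed CPM of the fibrillar collagen genes Col1a1, Col1a2, Col3a1, Col5a1, and Col5a2. The sum was 20991, 17869, 16697, and 21338 CPM in aged sham 1 to 4 and 66838, 52543, 73626, 68456, and 75540 CPM in aged bleo 1 to 5, a 3.51-fold difference of means. All 5 collagen genes were called higher, with log2 fold changes from 1.56 to 2.33. Relative to this sum, P4ha3 was higher in aged bleo and the other 9 genes were lower, and the libraries of the groups did not overlap for P4ha3 and for 8 of the 9 lower genes. Because the sum rose, most genes were lower by this measure. Over all 16877 genes tested the median ratio was 3.50 times lower (log2 difference -1.81), every aged bleo library was below every aged sham library for 89.1% of the genes, and above for 0.948%. A lower ratio is therefore the background here, and P4ha1, P4ha2, and Bmp1, which were not called in CPM, lay near its median.

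Per 10000 fibrillar collagen reads, aged sham libraries held 1.73 ± 0.472 reads of P4ha3 and aged bleo libraries 15.2 ± 2.14, a rise of 8.68-fold in the geometric mean ratio. P4ha1 went from 73.8 ± 13.2 to 23.1 ± 4.49 reads, P4ha2 from 33.7 ± 5.51 to 10.9 ± 1.63, and Bmp1 from 191 ± 17.7 to 62.1 ± 10.9, which are ratios 3.20, 3.09, and 3.11 times lower, close to the median gene. Serpinh1 went from 512 ± 111 to 269.5 ± 32.1 reads and Plod1 from 34.9 ± 5.65 to 18.4 ± 1.48, which are ratios 1.88 and 1.89 times lower, although both genes rose in CPM. Plod3 was 2.56 times, Pcolce 4.90 times, and Pcolce2 14.6 times lower. For these 9 genes, the two-sided exact permutation test gave p = 0.0159, the smallest it can give (adjusted over 17 ratios 0.0180), with the same direction in 5 of 5 aged bleo libraries. Any gene whose groups are fully separated gets this p, as 89.1% of all genes tested were, downward, by the sum that all these ratios share. For the lower genes the p-value therefore does not set a member apart from the background.

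Plod2 came nearest to the collagen genes, with 34.2 ± 4.42 reads per 10000 in aged sham and 24.5 ± 4.82 in aged bleo. Aged bleo 5, at 32.2 reads, lay within the range of aged sham, and the ratio was 1.41 times lower (two-sided exact permutation p = 0.0317, adjusted 0.0337). This call was lost when all 44 collagen chain genes formed the sum (adjusted exact permutation p = 0.270) and when any single library other than aged sham 4 and aged bleo 5 was left out (adjusted 0.0607 to 0.0759), although fewer libraries also raise the smallest p that can be reached. Since cells were sorted by a reporter of the collagen I promoter, the sum in each group is that of sorted cells only.

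**Figure D4:**
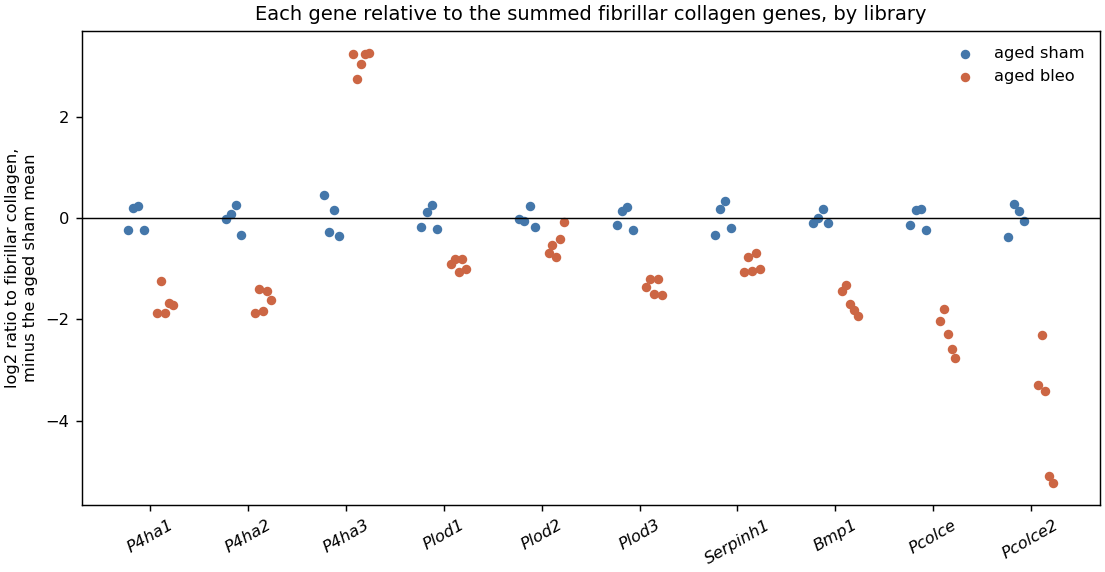
Log2 ratio of each gene to the summed fibrillar collagen genes, minus the mean of that ratio in aged sham, for the 4 aged sham (blue) and 5 aged bleo (orange) libraries. Points at 0 keep the aged sham ratio, and the median of all genes tested differed by -1.81 in aged bleo. Against the aged sham ratio at 0, P4ha3 lies about 3.12 above in aged bleo, and Serpinh1 and Plod1 differ by -0.91 and -0.92. Pcolce2 differs from 0 by -3.87, with the widest spread.

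Per length, the order of the 10 genes in aged sham was Serpinh1, Pcolce, Pcolce2, Bmp1, P4ha1, Plod3, Plod2, P4ha2, Plod1, and P4ha3. Neighbours in this order held their places in 4 of 4 libraries except P4ha2 and Plod1, which were at 4.31 and 4.10 FPKM on average and kept their order in 3 of 4, and the ranges of Plod2 and P4ha2 also met by a narrow margin. In aged bleo the order was Serpinh1, Pcolce, Bmp1, Pcolce2, P4ha1, Plod3, P4ha3, Plod2, Plod1, and P4ha2. The genes from Pcolce2 to Plod2 in this order, at 21.6 to 13.3 FPKM on average, did not differ beyond their spread, since each neighbouring pair kept its order in 3 of 5 libraries. P4ha3 moved from place 10 to place 7 and P4ha2 from place 8 to place 10.

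Of the other genes of the pathway that were tested, 19.4% passed both thresholds, beside 23.8% of all genes. Of 38 genes for collagen hydroxylation, folding, export, and processing, 36 were tested, and 6 were higher and 1 lower in aged bleo, which is 16.7% and 2.78% against 12.3% and 11.5% of all genes. Their median log2 fold change was 0.18, and 9 more passed the FDR threshold alone, 6 of them higher. Over all 16877 genes tested, 3531 passed the FDR threshold alone, 1862 of them higher. Mia2 and Tll2 had too few reads to be tested.

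Lepre1, the older symbol of P3h1, encodes the prolyl 3-hydroxylase of fibrillar collagens. It was at 63.5 to 68.7 CPM in aged sham and 113 to 174 CPM in aged bleo (1.19 on the log2 scale, standard error 0.12, edgeR FDR 1.93e-04). Of the other 5 genes listed with it, Leprel4, at 38.8 to 41.7 CPM in aged sham and 45.2 to 60.3 CPM in aged bleo, passed the FDR threshold alone (log2 fold change 0.45, 95% interval 0.26 to 0.64, edgeR FDR 0.00473). The intervals of Crtap (log2 fold change 0.01, -0.17 to 0.18), Ppib (-0.17, -0.36 to 0.02), Leprel1 (-0.30, -1.02 to 0.41), and Leprel2 (-0.10, -0.39 to 0.20) included 0. The difference of any of them from Lepre1 was not tested. P4hb, which encodes protein disulfide isomerase, averaged 678 ± 7.59 CPM over aged sham and 994 ± 188 CPM over aged bleo and passed the FDR threshold alone (log2 fold change 0.55, edgeR FDR 0.0159).

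Of 6 prolyl isomerase genes of the FKBP family, Fkbp10 and Fkbp11 were higher. Fkbp10, whose product FKBP65 works with HSP47 and lysyl hydroxylase on type I procollagen, was at 96.9 to 110.5 CPM in aged sham and 156 to 308 CPM in aged bleo (1.27 on the log2 scale, standard error 0.18, edgeR FDR 0.00106). Fkbp11 was scarce, at 4.94 to 6.31 CPM and 6.17 to 17.0 CPM with overlap (log2 fold change 0.89, edgeR FDR 0.0513), and its call was lost without aged sham 2 (FDR 0.124), without aged bleo 5 (FDR 0.112), and without aged bleo 4 and aged sham 4 (FDR 0.142).

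The 2 collagen galactosyltransferase genes, whose products add the sugar that follows lysyl hydroxylation, went opposite ways. Colgalt1 was at 117 to 132 CPM in aged sham and 159 to 199 CPM in aged bleo (0.62 on the log2 scale, standard error 0.08, edgeR FDR 9.46e-04), and without aged bleo 4 and aged sham 4 it was 0.56, under the fold change threshold. Colgalt2 was at 11.2 to 16.2 CPM in aged sham and 1.26 to 5.99 CPM in aged bleo (-2.05 on the log2 scale, standard error 0.42, edgeR FDR 0.00641).

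Adamts14, which encodes a procollagen N-proteinase, was at 27.7, 9.27, 9.15, and 14.3 CPM in aged sham and 29.3 to 51.1 CPM in aged bleo (1.44 on the log2 scale, standard error 0.34, edgeR FDR 0.0119). Adamts2, the most abundant of the 3 N-proteinase genes, was at 787 to 896 CPM in aged sham. In aged bleo 1 to 5 it was at 1055, 1049, 1088, 461, and 595 CPM. Aged bleo 1 to 3 thus lay above the aged sham range, and aged bleo 4 and 5 below it. Adamts2 was not called (log2 fold change 0.03, 95% interval -0.54 to 0.60, edgeR FDR 0.932), and this fold change averages over opposite directions. Adamts3, at 9.87 to 13.8 CPM and 11.9 to 16.3 CPM, was not called either (log2 fold change 0.24, edgeR FDR 0.188). Creb3l1, a membrane-bound transcription factor that drives collagen secretion genes, was at 72.6 to 83.6 CPM and 107 to 136 CPM (log2 fold change 0.65, standard error 0.09, edgeR FDR 9.70e-04). Of the other tested genes for collagen export, Mia3 and Klhl12 were lower and passed the FDR threshold alone. Their log2 fold changes were -0.23 and -0.18 (edgeR FDR 0.0429 and 0.0440). Sec23a and Sec13 were higher and passed it alone as well (log2 fold change 0.26 and 0.41). Sec24d, Creb3l2, and Trappc2 passed neither threshold (log2 fold change 0.11, -0.003, and -0.03). None of the 7 general oxidoreductase and chaperone genes of the endoplasmic reticulum was called by edgeR, DESeq2, or limma-trend, with 1 at an unadjusted p under 0.05 in edgeR, and their log2 fold changes ran from -0.28 for Hspa5 to 0.26 for Pdia4. The ranges of all 7 overlapped between the groups. The C-proteinase paralog Tll1 and the ascorbate transporter genes Slc23a1 and Slc23a2, which supply the cofactor of the hydroxylases, were not called by any of these tools and had no unadjusted p under 0.05, with log2 fold changes of -0.19, 0.28, and -0.13.

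**Figure D5:**
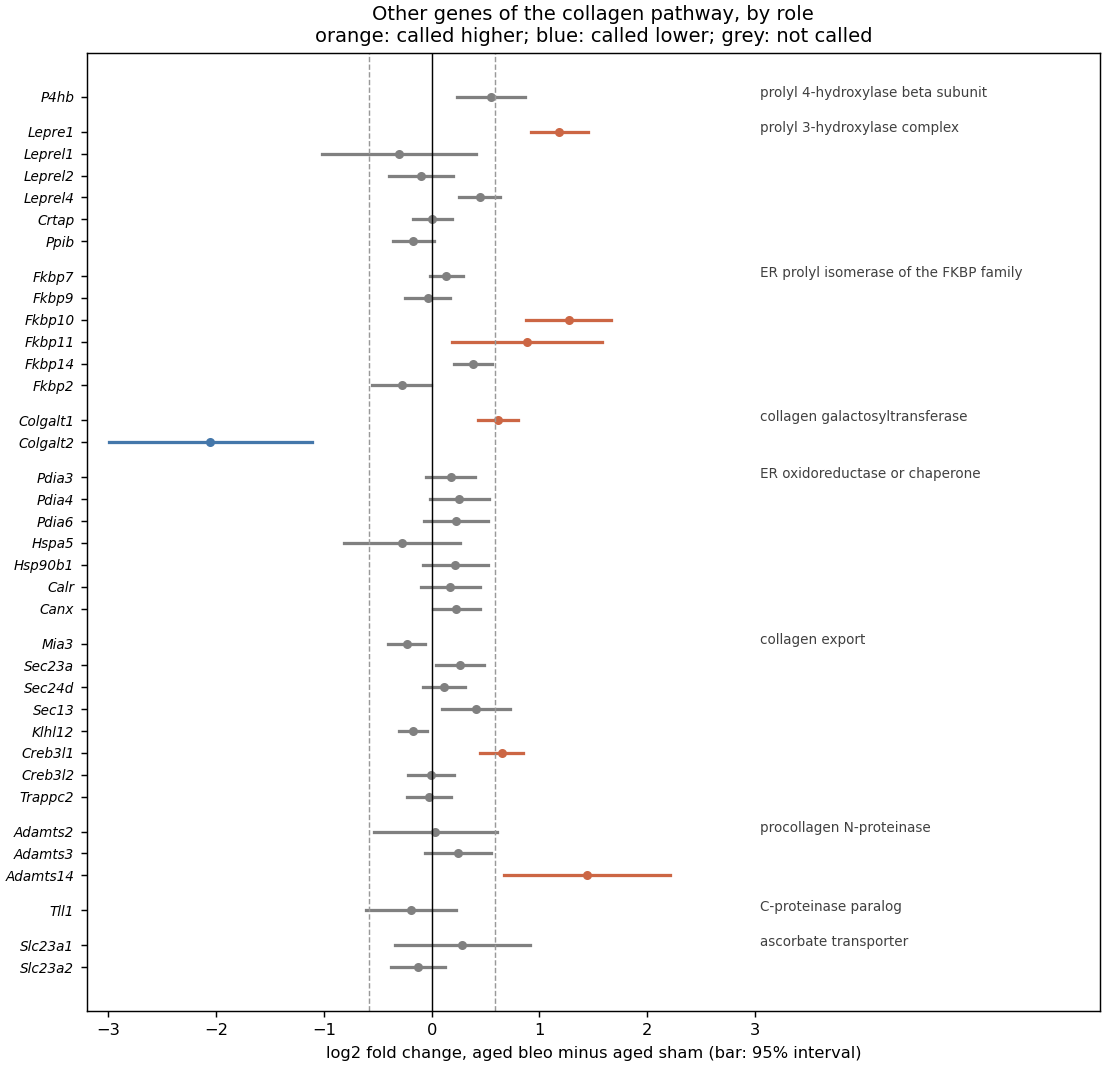
Log2 fold change of the 36 tested pathway genes in aged bleo minus aged sham, grouped by role, with 95% intervals from the edgeR fit and the fold change threshold as dashed lines. Genes called higher are orange, the gene called lower, Colgalt2, is blue, and the chaperones of the endoplasmic reticulum lie between -0.28 and 0.26.

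The genes whose log2 CPM followed these genes most closely over the 9 libraries were looked up for 4 members, as a description without a test, since 2 groups set most of each correlation. Pcolce2 was followed by Gsn, which encodes the actin-severing protein gelsolin (Pearson's r = 0.999), by Il17d (0.998), and by the glypican gene Gpc3 (0.998), and with the group means taken out r was 0.998, 0.997, and 0.995. P4ha3 was followed by the metal transporter gene Slc39a14 (0.998), Ksr2 (0.998), and Gm16564 (0.997), with 0.926, 0.963, and 0.881 after the group means were taken out. Plod2 was followed by Nlk (0.996), Fam206a (0.996), and Ept1 (0.993), with 0.97, 0.986, and 0.952, and Serpinh1 by Lactb (0.991), Eva1a (0.99), and Prkar1a (0.989), with 0.911, 0.899, and 0.917.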

How the data were processed

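Poly-A RNA-Seq libraries of sorted Col1a1-GFP+ lung fibroblasts, 4 from aged sham and 5 from aged bleo mice, were grouped by their sample titles. The authors deposited raw read counts per gene without normalization, and FPKM values, which the authors divided by the listed gene length and by a library total above the sum of the deposited counts. Shares within a family and the order of genes per length depend on the listed lengths, and whether these match the transcripts in these cells was not tested. The submitters' processing notes list STAR 2.5.2b, featureCounts, mm10, and GRCm38. The strand setting is not given in the sources used here. Coordinates are those of the deposited table, and strands are from GENCODE M21 (33460 of 42462 shared identifiers have the same position).

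All genes whose mean count reached 25 entered edgeR 4.0.16 (glmQLFit, glmQLFTest, TMM, no covariate). The filter and thresholds are the study's, whose moderated test was replaced because the values are counts. CPM values are TMM-scaled, and log2 CPM for likeness used a prior count of 2. The 17 log2 ratios used CPM + 0.1 and two-sided exact permutation tests over 126 divisions of the libraries with Benjamini-Hochberg adjustment, and an adjusted p under 0.05 was past the threshold. The two-sided p of the exact permutation test was the smaller p of the 2 directions, doubled, so its smallest value was 0.0159. Totals were 49921946 to 68260600 counts. Limits from counts cover counting error only. No 2 libraries of a group were duplicates (chi-square per degree of freedom at least 30.9). Promoter windows are from RefSeq (GRCm38.p6).

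Named are the 10 members, the pathway genes called or not tested, the 5 fibrillar collagens, marker lists by counts, and the 3 genes most correlated with each of 4 members. Crtap, Ppib, Leprel1, Leprel2, Leprel4, P4hb, Hspa5, Pdia4, Tll1, Slc23a1, and Slc23a2 were named after their values were seen, as partners, range ends, or members of small groups. So were Adamts2, Adamts3, Mia3, Klhl12, Sec23a, Sec13, Sec24d, Creb3l2, and Trappc2. The members and lists were chosen with earlier results of these data known. Alternatives were DESeq2 1.42.0, limma 3.58.1 on log2 CPM and on log2(FPKM + 0.1) and log2(FPKM + 1), RLE factors, scaling by library size alone, testing without a filter or with 10 or more counts in each library, stricter thresholds, each library left out, replicate numbers as a block, libraries whose names end in 4, and, chosen after seeing the data, leaving out aged bleo 4 and aged sham 4 together. Ratios were repeated with pseudocounts of 0.01 and 1 and with all 44 collagen genes. The tests were tried on simulated data.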

Additional observations from a re-analysis of the deposited data

Results flagged for a closer look

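A library stood apart from the rest of its group, with a gap to its neighbour above Dixon's 95% critical value, in 4 of the 68 groups of values checked, where chance gives about 5%. Aged bleo 2 was lowest for Colgalt1, at 159 CPM, and for the log2 ratio of P4ha3 to P4ha1, at -1.38. Aged bleo 5 was highest for the log2 ratio of Plod2 to Plod1, at 0.90, and of Plod2 to Plod3, at 0.58.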

How the results depend on the processing

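None of the log2 fold changes and log2 ratios of the members, the called pathway genes, and the fibrillar collagens changed sign under any alternative run. The 4 members called higher and the 1 called lower stayed at those numbers with each library left out, and the pathway genes called higher then numbered 5 to 7, the genes called over all 3525 to 4597, the paralog ratios past the threshold 6, and the collagen ratios 9 to 10. At stricter thresholds (FDR below 0.05, change above 2-fold), 2158 genes, 2 members, and 3 pathway genes higher were called, since Plod1, Serpinh1, Fkbp11, Colgalt1, and Creb3l1 changed by less than 2-fold. limma on log2(FPKM + 1) called 1785 genes, and no filter gave 2 lower pathway genes. With aged bleo 4 alone against aged sham (names ending in 4), where its spread is assumed to be that of aged sham, 6177 genes, 2 lower members, and 4 lower pathway genes were called, and Plod3 (0.66) and Pcolce (-0.73) passed the thresholds. Deviations of same-numbered libraries correlated at 0.092, 0.062, -0.13, and 0.326 for numbers 1 to 4, and number 4 alone matched best with its own number. As not every correlation passed 0.1, the numbers were not taken as pairs. With the replicate block, 3536 genes, 4 members higher and 1 lower were called, and Fkbp11 was lost. The paired ratio test called 0 paralog ratios and 0 collagen ratios, as 4 pairs allow no p under 0.125.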
